A study of Drosophila melanogaster with 2 samples.

Results

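Translation factors and aminoacyl-tRNA synthetases are soluble proteins that act in protein synthesis, with enzymes and GTPases among them. Their genes were examined for binding of danr (distal antenna-related), which encodes a nuclear DNA-binding protein of the pipsqueak-domain family, in whole Drosophila melanogaster embryos. The members were all protein-coding genes of the BDGP6 annotation whose symbol begins with eIF (initiation factors) or eEF (elongation factors), or names a synthetase by amino acid, such as AlaRS, with -m for a mitochondrial enzyme. This gave 84 of 13968 protein-coding genes, namely 44 initiation factor, 8 elongation factor, 17 cytosolic and 15 mitochondrial synthetase genes. A gene was called bound if the summit of a danr region lay within 1000 bp of any of its annotated start sites.

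The flies carried a danr-eGFP transgene, and the fusion protein was recovered with an antibody against GFP from embryos aged 0 to 24 h. The series is 1 group of 2 biological replicates, with no second genotype or stage, and whole embryos mix all cell types. Control libraries are named in the labels but not analysed here. For each replicate and for both together the authors deposited ranked peak lists and lists thresholded on the irreproducible discovery rate (IDR), with a score of 830 for an IDR of 0.01. Signal is the authors' enrichment value per peak, and read depth is unknown. The thresholded list of both replicates held 2632 regions on the 7 chromosomes used.

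Initiation factors bring the ribosomal subunits, the initiator tRNA and the mRNA together, elongation factors deliver charged tRNAs and move the ribosome along, and synthetases join each amino acid to its tRNA. Most mitochondrial synthetases are separate proteins, encoded in the nucleus and imported to serve protein synthesis inside the organelle, while some enzymes serve both compartments. Genes of the translation machinery are active in nearly all cells.

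The sequences at 6 of the bound members are shown, namely the strongest region of all and members picked because they hold a motif. The motifs are TATAAA, the TATA box core, and the recognition sequence of DREF, a factor that binds promoters of replication and growth genes. TATAAA was held by 4 of the 13 members, of which 3 are shown, and the DREF sequence by 2. These are 30.8% and 15.4% of the windows, against 24.6% and 1.77% of regions at protein-coding starts. Where the matches lie relative to a start site was not examined. Each line is the dm6 reference from 50 bp before to 50 bp after the summit, 5′ to 3′ on the strand of the named gene, and capitals mark TATAAA or TATCGATA on either strand.
eIF2Bbeta, chrX:2703832-2703932, plus strand, neither motif: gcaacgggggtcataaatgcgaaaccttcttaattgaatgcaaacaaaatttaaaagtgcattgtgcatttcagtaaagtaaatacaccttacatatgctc
SerRS, chr2L:3037335-3037435, minus strand, TATAAA: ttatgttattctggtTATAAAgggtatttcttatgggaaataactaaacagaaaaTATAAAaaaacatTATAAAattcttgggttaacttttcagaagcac
LeuRS-m, chr3L:4824893-4824993, plus strand, TATAAA: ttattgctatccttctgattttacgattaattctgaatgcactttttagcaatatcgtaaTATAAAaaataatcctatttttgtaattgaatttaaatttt
ThrRS, chr2L:12103513-12103613, plus strand, TATAAA on the other strand: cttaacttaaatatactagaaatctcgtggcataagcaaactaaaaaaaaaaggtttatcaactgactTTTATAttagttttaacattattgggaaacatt
eEF1gamma, chr3R:29220084-29220184, plus strand, TATCGATA: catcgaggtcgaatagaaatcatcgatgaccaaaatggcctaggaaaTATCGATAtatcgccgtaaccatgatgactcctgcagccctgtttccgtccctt
eIF1, chr3L:3222959-3223059, plus strand, TATCGATA: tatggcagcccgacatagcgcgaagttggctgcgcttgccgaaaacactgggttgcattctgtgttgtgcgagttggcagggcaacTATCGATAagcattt

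danr regions lay at 13 of the 84 member genes, or 15.5%, against 13.4% of all protein-coding genes. The share of members was close to the share over all genes. The conservative list of both replicates also gave 13 members, 15.5%, against 11% of all genes. Replicate 1 alone gave 10 members, 11.9%, against 8.81% of all genes, and replicate 2 alone gave 10 members, 11.9%, against 9.09%. In each of the 4 lists the members stood a little above all genes. The lists rest on the same 2 replicates, and the difference was not tested. Of the 13 members, 8 were in the thresholded lists of both replicates, 2 in that of replicate 1 only (eEF1alpha1 and eIF3m), 1 in that of replicate 2 only (eIF5B) and 2 in neither (eIF3h and eIF1). That is 61.5% of the bound members in both replicates' lists, against 46.8% of all bound protein-coding genes.

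**Figure D1:**
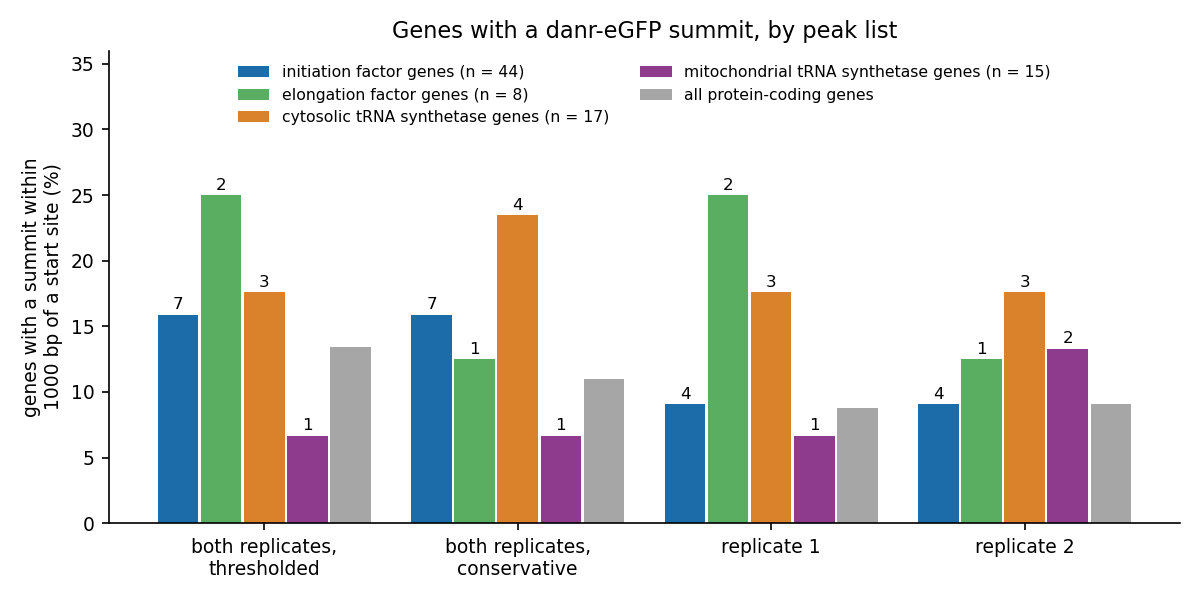
Bars give the percentage of genes with a danr-eGFP summit within 1000 bp of a start site in each of 4 peak lists, for the 4 member groups and for all protein-coding genes (grey); digits above the bars are the numbers of bound genes. Initiation factors stood at 15.9% in the thresholded list and in the conservative list of both replicates, beside 13.4% and 11% of all genes. They stood at 9.09% in each replicate alone, beside 8.81% in replicate 1 and 9.09% in replicate 2.

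Among the 44 initiation factor genes, 7 were bound (15.9%), against 13.4% of all protein-coding genes, with 4 in each replicate alone. They were 3 of 16 genes of eIF3, the scaffold on the small ribosomal subunit, 1 of 5 of eIF2B, the exchange factor that recharges eIF2 with GTP, and eIF1, eIF5B and eIF6 among 7 other genes. None of the 3 genes of the eIF2 trimer, which carries the initiator tRNA, and none of the 13 eIF4 genes, whose products recognise and unwind the capped mRNA, was bound in this list. These subgroups are too small to set their counts against the share of all genes.

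The region of highest signal in the whole list was counted for eIF2Bbeta (FBgn0024996), the beta subunit of eIF2B, with a signal of 1356 at chrX:2703732-2704042. Replicate 1 gave 701 there and replicate 2 gave 648. The summit was intergenic, 689 bp upstream of eIF2Bbeta but 30 bp upstream of Ugalt, which encodes a UDP-galactose transporter on the opposite strand. The start of Ugalt was the nearer one, and eIF2Bbeta was lost when only the nearest start site was counted.

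eIF6 (FBgn0034915), which keeps the large ribosomal subunit from joining the small one too early, had the next highest signal among the members. Its region at chr2R:23850290-23850519 had a pooled signal of 499, with 208 in replicate 1 and 293 in replicate 2. That region ranked 36 of the 2653 regions held before the restriction to 7 chromosomes. The summit lay upstream of eIF6, in an intron of the gene ytr and in an exon of an antisense RNA gene whose start was the nearest of all. No protein-coding start was closer than that of eIF6, and that of ytr was 671 bp away.

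Of the eIF3 subunit genes, eIF3c (FBgn0034258) had the strongest region, with a pooled signal of 155 at chr2R:17665480-17665823. The signal was 55.0 in replicate 1 and 102 in replicate 2, both past the threshold, and the summit lay 26 bp upstream of the start site, with CCHa1-R, a neuropeptide receptor gene, starting 584 bp away. eIF3h (FBgn0022023) had a pooled signal of 76.5 at chr2L:5052281-5052624, with its summit in an intron of eIF3h, 327 bp downstream of the nearer of its 2 start sites and 390 bp from that of senju. Its replicates gave 33.4 and 36.5, with scores of 555 and 799, so that neither passed alone. eIF3m (FBgn0033902) had a pooled signal of 67.9 at chr2R:14164753-14165096, 100 bp upstream of its start, with 35.6 in replicate 1 and 30.8 in replicate 2, of which only the first passed. The pooled summit lay 126 bp from the start of CG8323 on the opposite strand, and the summit of replicate 1 was nearer to CG8323, at 20 bp, than to eIF3m, at 206 bp. The other 13 genes of eIF3 had no region in this list.

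eIF5B (FBgn0026259), the GTPase that joins the ribosomal subunits, had a pooled signal of 92.3 at chr3L:3460580-3460923. The summit was in a 5' UTR of eIF5B, 149 bp upstream of the nearest of its 2 start sites, since the longer transcript covers it, and 563 bp from CG46463. Replicate 2 gave 70.6 and passed, while replicate 1 gave 31.5 with a score of 790 and did not. eIF1 (FBgn0035423), which guards start codon choice, had the lowest signal of the bound members, 61.8, with 29.6 and 29.8 in replicates 1 and 2, neither past the threshold. Its summit was intergenic, 332 bp upstream of eIF1 but 49 bp upstream of RpL28, a ribosomal protein gene on the opposite strand.

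Among the 8 elongation factor genes, 2 were bound (25%), against 13.4% of all protein-coding genes, a count too small to set against that share. In the conservative list 1 was bound (12.5%), against 11% of all genes. Both regions of the thresholded list had no other protein-coding start within 1000 bp of the summit. eEF1gamma (FBgn0029176), a subunit of the exchange factor of eEF1alpha, had a pooled signal of 142 at chr3R:29219962-29220305, with 78.7 in replicate 1 and 61.4 in replicate 2. Its summit was intergenic, 38 bp upstream of the start site, and passed in both replicates. eEF1alpha1 (FBgn0284245), which delivers charged tRNAs to the ribosome, had a pooled signal of 71.0 at chr2R:11891886-11892229, in an intron and 64 bp upstream of an internal start site. Replicate 1 gave 43.9 and passed, while replicate 2 gave 22.4 with a score of 260, so that replicate 2 alone left 1 elongation factor gene. eEF1alpha1 was also the bound member missing from the conservative list. Its paralog eEF1alpha2 had only ranked peaks below the threshold, with signals of 14.0 and 12.8 in replicates 1 and 2. eEF2, the translocation factor, lay just below the score limit, with a pooled signal of 60.8 at a score of 824, 33.6 in replicate 1 and no ranked peak in replicate 2.

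Cytosolic synthetase genes were bound in 3 of 17 cases (17.6%) and mitochondrial ones in 1 of 15 (6.67%), against 13.4% of all protein-coding genes. In replicate 1 alone the counts were again 3 cytosolic (17.6%) and 1 mitochondrial (6.67%), against 8.81% of all genes. In replicate 2 alone they were 3 (17.6%) and 2 (13.3%), against 9.09%, and in the conservative list 4 (23.5%) and 1 (6.67%), against 11%. The cytosolic count was higher than the mitochondrial one in all 4 lists, by at most 3 genes. These lists are not independent. They rest on the same 2 replicates, and SerRS, IleRS, ThrRS and LeuRS-m were in each of them. These are counts over all genes that match the naming rule, and the difference was not tested. The rule leaves out GluProRS, a fused enzyme for glutamate and proline that was bound in all 4 lists. GluRS-m and ProRS-m are counted on the mitochondrial side. Some genes without -m may also serve mitochondria.

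SerRS (FBgn0031497) had the strongest region of the cytosolic group, with a pooled signal of 165 at chr2L:3037213-3037556, 55.8 in replicate 1 and 110 in replicate 2. The summit was in a 5' UTR of SerRS, 18 bp inside the gene and 26 bp upstream of a start site of CG17260, which is read from the opposite strand. IleRS (FBgn0027086) had a pooled signal of 138 at chr3L:22288319-22288662, with 63.0 in replicate 1 and 77.0 in replicate 2. Its summit was intergenic, 174 bp upstream of IleRS and 296 bp upstream of Hem, a gene of the WAVE actin-regulating complex. ThrRS (FBgn0027081) had a pooled signal of 106 at chr2L:12103391-12103734, with 47.5 in replicate 1 and 55.5 in replicate 2, and its intergenic summit lay 188 bp upstream of ThrRS and 278 bp upstream of Patsas. All 3 genes passed in both replicates, and their pooled summits lay closer to the synthetase than to the neighbour. In replicate 1 alone the SerRS summit lay 20 bp upstream of SerRS and 12 bp inside CG17260, in a 5' UTR of CG17260. AspRS was bound in the conservative list only, with a signal of 65.8 and a score of 856 there. In the pooled ranked list that peak had a score of 708, and its summit lay in an intron of AspRS, 141 bp upstream of a start site of that gene and 87 bp inside Nmda1.

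The only mitochondrial synthetase gene in the series list was LeuRS-m (FBgn0027085), with a pooled signal of 158 at chr3L:4824771-4825114. Replicate 1 gave 80.0 and replicate 2 gave 80.8, both past the threshold. The summit lay in an intron of Dhc64C, the heavy chain of cytoplasmic dynein, 744 bp inside that gene and 910 bp upstream of LeuRS-m. It was the member just inside the distance limit, and within 500 bp no mitochondrial synthetase gene was bound, against 11.2% of all protein-coding genes. The members just outside were eIF3d1, with a summit of signal 165 at 1288 bp, and eIF3g1, with one of signal 108 at 1347 bp. ProRS-m was bound in replicate 2 alone, with a signal of 35.5 and a score of 914, against 11.7 and a score of 15 in replicate 1. That summit was intergenic, 138 bp upstream of ProRS-m and 100 bp upstream of CG42304.

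**Figure D2:**
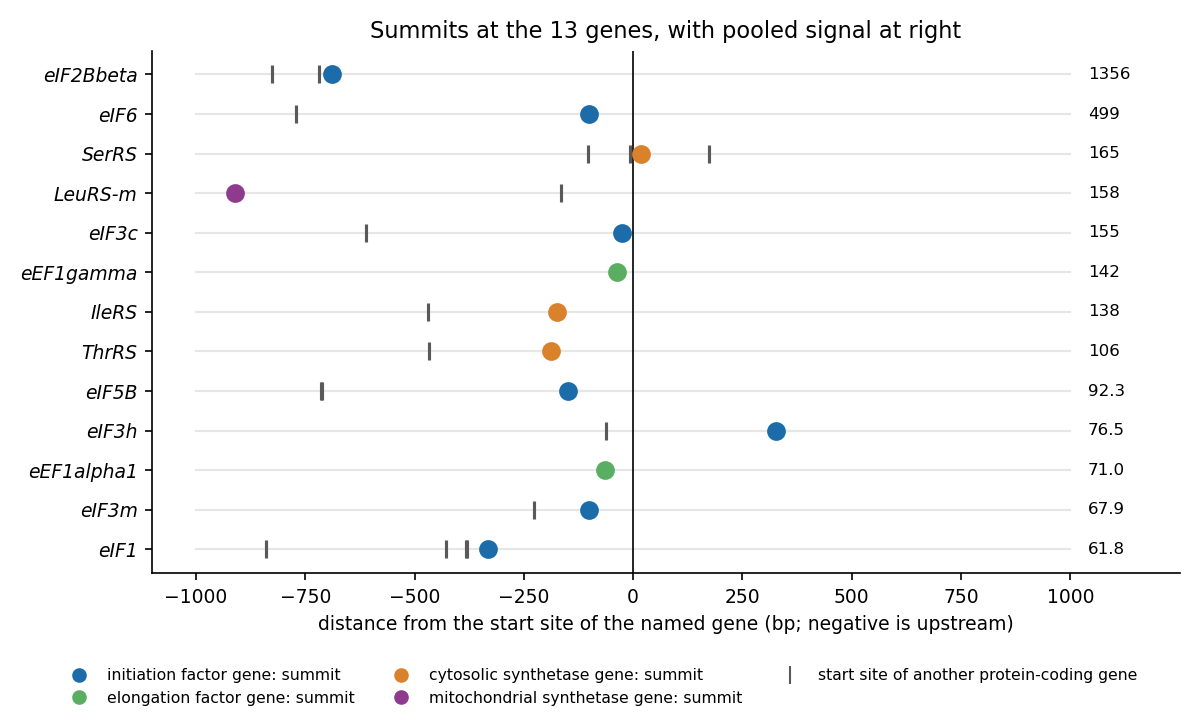
Circles mark the danr summit at each of the 13 bound members on the axis of distance in bp from the nearest start site of the named gene, ticks mark start sites of other protein-coding genes, and the numbers give the pooled signal. For 11 of the 13 members the summit lies upstream of that start site, although at eIF5B and eEF1alpha1 it is still within the gene. The summits of eIF2Bbeta, 689 bp away, and LeuRS-m, 910 bp away, lie farthest out.

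Most bound members shared their region with a neighbour. Another protein-coding start lay within 1000 bp of the summit for 11 of 13 members, or 84.6%, against 60.9% of all bound protein-coding genes. The neighbour was on the opposite strand for all of these except eIF6, where ytr runs the same way. Counted around the start sites themselves, 61.9% of the 84 members had another protein-coding start within 1000 bp, against 42.8% of all protein-coding genes. The share was 92.3% among the 13 bound members and 56.3% among the 71 others, beside 66.0% among all bound protein-coding genes. The member held the nearest protein-coding start in 10 of 13 cases, or 76.9%, against 69.9% for all bound genes; the exceptions were eIF2Bbeta, LeuRS-m and eIF1.

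The regions counted for the bound members were placed as at other genes. Their median signal was 138, against 89.5 over the 1413 regions with a protein-coding start within 1000 bp of the summit, and 9 of 13 lay above that median. For each member only the region of highest signal was taken, while the 1413 hold every such region. The medians are therefore not on the same footing. The median distance to the start was 149 bp, against 187 bp over all bound genes. The summit was upstream of that start in 11 of 13 members, or 84.6%, against 83.4% of all bound genes.

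Base composition and motifs at the summits varied from member to member. The mean A+T content of the windows was 63.4% ± 11.1 (SD, 13 windows), against 67.2% ± 9.47 over the 1413 regions at protein-coding starts. It ran from 47.5% at eEF1alpha1 and eIF1 to 79.2% at LeuRS-m. TATAAA occurred in 4 of 13 windows, or 30.8% (eIF6, SerRS, LeuRS-m and ThrRS), against 24.6% of the 1413, and the SerRS window held 3 copies. TATCGATA, the DREF site, occurred in 2 of 13, or 15.4% (eEF1gamma and eIF1), against 1.77%, or 25 of the 1413 windows. GAGAG occurred at eIF3c only, 7.69% against 8.28%. The E-box form CAGCTG occurred in none of the 13, against 3.68%. The homeodomain core TAATTA was likewise in none, against 9.98%, and the AP-1 site TGACTCA in none, against 0.778%. Both strands were searched, and with 13 windows these shares rest on a few genes.

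The pyrimidine-rich TCT initiator is a start site type known from ribosomal protein and translation factor genes of the fly. It was searched as 4 forms, namely CCTTTC and its variant ending in T, CCTTTT, together with TCTTTC and its own variant ending in T, TCTTTT. A form with its second base within 5 bp of a start site on the sense strand, was found at 8 of the 84 members, or 9.52%, against 2.13% of all protein-coding genes. They were eIF3f1, eIF3i, eIF3m, eIF4A, eEF2, eEF5, ThrRS and TyrRS, and no mitochondrial synthetase gene was among them. Of the 13 bound members 2 had it (ThrRS and eIF3m), or 15.4%, against 3.95% of all bound genes. Any start site of a gene was counted here. At ThrRS the form was at the start nearest the summit. At eIF3m the recorded form was at the other of its 2 start sites, not at the one 100 bp from the summit. Of the 71 others 6 had it, or 8.45%.

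eIF4EHP (FBgn0053100), a cap-binding protein known in the fly embryo as a repressor of caudal mRNA translation, had a strong ranked peak that no thresholded list held. The peak at chr3R:24109052-24109317 had a pooled signal of 405 and the top score of 1000, with 235 in replicate 1 and 172 in replicate 2, also at scores of 1000. Only eIF2Bbeta and eIF6 had higher pooled signals among the members. The summit was intergenic, 225 bp upstream of eIF4EHP and 151 bp from the start of CG18428. It was among 112 rows of the pooled ranked list that passed the score limit but were missing from the thresholded list, of which 79 were on the 7 chromosomes, near 37 protein-coding genes. No other member was near such a row. The thresholded lists draw on 1 further input that the ranked lists lack, per the deposited descriptions, and its content is not given in the sources used here. With these rows kept, an alternative chosen after seeing the data, 14 members were bound, or 16.7%, against 13.6% of all protein-coding genes.

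The remaining 70 members had weaker ranked peaks or none. A ranked peak of any score lay within 1000 bp of a start in 64 of them, with pooled signals from 6.54 to 65.8 and a median of 25.3, and 6 had none. Such a peak says little by itself, since 92.9% of the members and 91.5% of all protein-coding genes had one in the pooled ranked list. In the second ranked list of both replicates, the source of the conservative list, the shares were 82.1% and 84.6%. Apart from eIF4EHP, the 12 eIF4 genes had signals from 9.20 to 40.8 (10 with a peak), with eIF4A, the helicase, at 40.8 and eIF4E1, the main cap-binding protein, at 25.7. The eIF2 trimer genes had 28.5 for eIF2gamma, 8.62 for eIF2alpha and 6.54 for eIF2beta. The 14 unbound cytosolic synthetase genes ran from 16.7 to 65.8 with a median of 27.8, and the 13 of 14 unbound mitochondrial ones with a peak from 18.3 to 47.8 with a median of 24.9. AsnRS, MetRS and ArgRS had 54.3, 48.5 and 46.3, the highest after eEF2 among members in no thresholded list and with no score past the limit. eEFSec, eIF2alpha, eIF3f1, eIF3g1 and eIF4B had no ranked peak in either replicate.

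In replicate 1, 86.9% of the members had a ranked peak within 1000 bp, against 79.7% of all protein-coding genes, and the median highest signal among genes with a peak was 19.0, against 17.1. With genes lacking a peak set to 0, the medians were 18.5 in members and 14.7 in all genes. In replicate 2, 67.9% had one, against 77.5%, with medians of 16.5 in members and 15.4 in all genes. With genes lacking a peak set to 0, the order turned, to 10.5 in members and 12.9 in all genes. The members were thus above all genes in replicate 1 and below them in replicate 2, both in this share and in the median with such genes at 0.

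**Figure D3:**
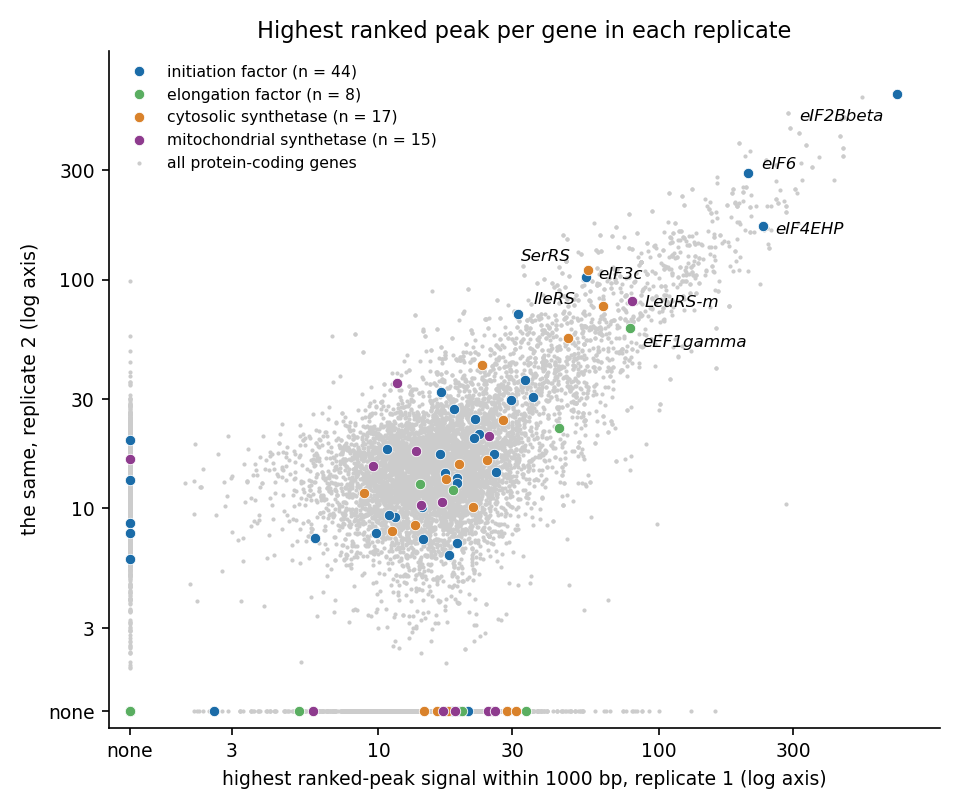
Each point is a gene at the highest signal of any ranked peak within 1000 bp of its start sites in replicate 1 (horizontal, log axis) and replicate 2 (vertical, log axis), with genes lacking a peak set at "none"; colours mark the 4 member groups and grey all protein-coding genes. In replicate 1, 73 of the 84 members had a peak, with a median signal of 19.0. In replicate 2, 57 had one, with a median of 16.5. The points of eIF2Bbeta (701 and 648), eIF6 (208 and 293) and eIF4EHP (235 and 172) stand at the upper end of the grey cloud.

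Cytosolic and mitochondrial synthetase genes for the same amino acid formed 12 pairs, while 5 cytosolic genes had no -m partner and 3 -m genes had no partner of the matching name. In none of the 12 pairs were both genes bound in the thresholded list of both replicates. Bound genes were few, at 17.6% of cytosolic and 6.67% of mitochondrial genes, against 13.4% of all protein-coding genes. The lack of such a pair therefore says little. By the highest ranked signal, the cytosolic gene was higher in 7 pairs and the mitochondrial gene in 5 in replicate 1, and in replicate 2 in 5 and 4, with no peak at either gene in the other pairs. The cytosolic gene was higher in both replicates in 3 pairs, for asparagine, isoleucine and serine, and the mitochondrial gene in 2, for leucine and tryptophan. In these counts a gene with no peak was taken as lower than a partner with one. For asparagine and tryptophan neither gene was bound. TrpRS had 14.5 and no peak in replicates 1 and 2, against 16.8 and 10.6 at TrpRS-m. At IleRS the signals were 63.0 and 77.0, against 5.87 and no peak at IleRS-m. At SerRS they were 55.8 and 110, against 14.2 and 10.3 at SerRS-m. Leucine was the reverse, with 11.1 and 8.01 at LeuRS against 80.0 and 80.8 at LeuRS-m. The LeuRS-m values belong to the region in an intron of Dhc64C, whose pooled summit lay 910 bp from LeuRS-m.

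**Figure D4:**
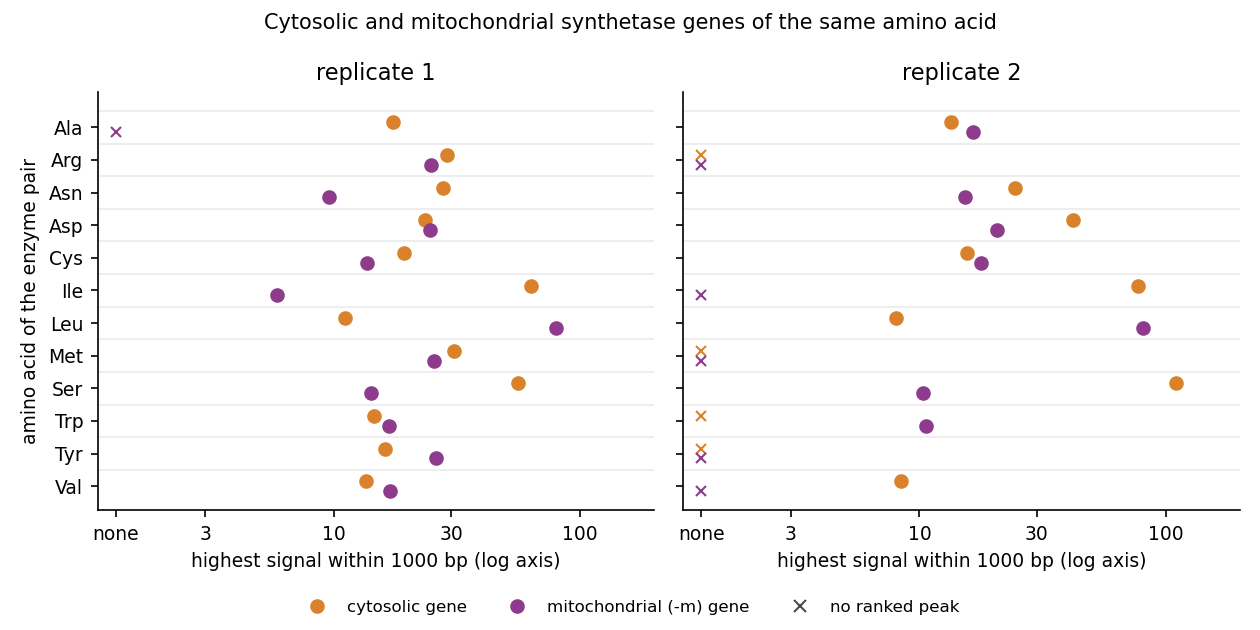
For the 12 amino acids with both a cytosolic and a mitochondrial (-m) gene, points give the highest signal of a ranked peak within 1000 bp of a start site in replicate 1 (left) and replicate 2 (right) on a log axis, and crosses mark genes with none. Serine and isoleucine stand out on the cytosolic side, with 110 and 77.0 in replicate 2, and leucine on the mitochondrial side, with 80.8.

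Other genes of translation outside the naming rule were bound in 7 of 34 cases, or 20.6%, against 13.4% of all protein-coding genes, and 8 further listed symbols were not found in the annotation under that spelling. By class, 3 of 11 genes that control initiation, 2 of 4 of termination and ribosome rescue, 1 of 9 of tRNA charging and modification and 1 of 10 of mitochondrial translation were bound, counts too small to set against that share. GluProRS, a fused enzyme for glutamate and proline, was the strongest, with a pooled signal of 238, 83.5 in replicate 1 and 160 in replicate 2, its summit 114 bp upstream of the start. Genes that act at the cap or the poly(A) tail followed with pooled signals of 100 at pAbp, the poly(A)-binding protein, 99.1 at Thor, the eIF4E-binding repressor, and 84.0 at Paip2, the inhibitor of pAbp. The release factor gene eRF3 had 99.9, the ribosome rescue gene pelo 70.6 and the mitochondrial elongation factor gene mEFTu1 43.0. In replicate 1 alone 6 of the 34 passed, or 17.6%, against 8.81% of all genes. One of these was NAT1, with a signal of 27.6, which was not in the list of both replicates. In replicate 2 alone 3 passed (GluProRS, Paip2 and eRF3), or 8.82%, against 9.09%. Neither pelo nor mEFTu1 passed in a single replicate.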

How the data were processed

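Chromatin immunoprecipitation followed by sequencing of danr-eGFP was measured in 2 biological replicates of whole embryos, per the labels. The authors deposited 8 peak lists in dm6 coordinates, per the deposited file descriptions. Each deposited row has a signal (the authors' enrichment value, scale not stated), a score and, in ranked lists, the −log10 of the IDR. The deposited score was compared with a scaled and capped logarithm of the IDR, which gives 830 at an IDR of 0.01. It matched within 1 unit in every ranked row. The sources used here name no peak caller or aligner. Depth is unknown, so no counting interval is given.

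Overlapping rows (at least 1 bp) of a thresholded list were merged, the row of highest signal giving the summit (start plus peak offset). Summits on 7 chromosomes were assigned to start sites of the Ensembl release 115 annotation, whose chromosomes contain every peak. A replicate's signal at a region is the strongest ranked peak with a summit within 150 bp. Ranked rows were not merged. Sequences came from the RefSeq genome of the same release. Assignment was checked on simulated summits.

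With 1 group no test between groups exists, and shares are given beside all protein-coding genes. Named genes are all members in any thresholded list, the 5 strongest other members by pooled ranked signal, bound related genes and the nearest neighbour of each summit; other members are named only for values of a group. The members, gene lists and motifs were chosen with earlier results of these data known, and the TCT search was added after seeing the data. Settings tried were each replicate alone, the conservative list, signal above the median, 500 and 2000 bp, gene starts only, nearest start only, no merging and ranked rows past the score limit. Software was Python 3.11.15 with pandas 2.3.3 and numpy 2.4.6.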

Additional observations from a re-analysis of the deposited data

How the results depend on the processing

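The count of 13 bound members ranged from 9 to 15 over the settings tried and stayed within 1.5 times in each. Smaller groups moved more, since each rests on a few genes. Initiation factor genes numbered 4 in each replicate alone, 4 with signal above the median and 4 with the nearest start site only. Elongation factor genes numbered 1 to 2 in single replicates, 1 in the conservative list and 1 with signal above the median. Mitochondrial synthetase genes numbered 1 to 2 in single replicates, and 0 within 500 bp and 0 with the nearest start site only, both times through the loss of LeuRS-m. Related genes numbered 3 to 6 in single replicates. The share of all protein-coding genes was 8.81% to 9.09% in single replicates. With signal above the median it was 7.84%, against 10.7% of members. With the nearest start site only it was 9.39%, against 10.7% of members and 9.09% of initiation factor genes. With gene starts only it was 11.8%, against 15.5% of members, and within 500 bp 11.2%, against 13.1%. With 2000 bp eIF3d1 and eIF3g1 were added, and 17.9% of members stood against 17.1% of all protein-coding genes.

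No paired analysis was possible because the 2 replicates form 1 group. Depth is unknown, so whether weaker regions were missed could not be judged.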
